A study of Mus musculus with 14 samples.

Results

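Dlx1, Dlx2, Dlx5, Dlx6, the antisense long non-coding RNA Dlx6os1 and Lhx6 were followed in bulk RNA sequencing of mouse hippocampus. These 6 genes, of 18778 with a value in at least 1 library, were taken by symbol from the gene column of the authors' 4 deposited comparison tables. They were chosen by measured values: the authors' deposited tables call Dlx6os1 in all 4 comparisons, and the group FPKM and per-library abundances of the set were known when it was drawn up. Their differences between groups are therefore given as a description. The 14 libraries came from C57BL6 mice that were 30 days old and either wild type or heterozygous for the KMT2D+/bGeo allele of the H3K4 methyltransferase gene Kmt2d. By gavage, for 2 weeks from 2 weeks of age, they were given 1 mg/kg/day of TAK-418, which blocks LSD1 (the H3K4 demethylase encoded by Kdm1a), or the methylcellulose vehicle. There were 3 wild-type and 3 mutant libraries under vehicle, and 5 wild-type and 3 mutant libraries under TAK-418, while the design text gives 3 to 4 mice per group. The labels do not state that each library is a separate animal, so the p-values measure only the spread between these samples. The labels also carry no replicate numbers, and those used here only name the libraries of a group in sample order.

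Dlx genes encode homeodomain transcription factors that lie in pairs facing each other, Dlx1 with Dlx2 and Dlx5 with Dlx6, with shared enhancers between the genes of a pair. They drive the differentiation and migration of GABAergic interneurons from the ganglionic eminences of the embryonic forebrain. Lhx6, a LIM homeodomain factor, acts downstream in interneurons born in the medial ganglionic eminence, which include the parvalbumin and somatostatin classes of the hippocampus. Dlx6os1 (also called Evf) is transcribed across the Dlx5 and Dlx6 region and acts in the control of those genes in the embryonic forebrain.

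The values came in 2 kinds, each on a scale that corrects for transcript length. The authors' deposited tables give 1 FPKM value (fragments per kilobase and M fragments, with M for 1000000) per group and locus. The authors' assembled transcripts carry an abundance in each library, which was summed over the transcripts of a GENCODE gene and divided by a library factor to give a scaled abundance. Relative sequencing depth, read from the smallest steps of these values, reached 168 M in the treated wild-type replicate 1, against 35.1 to 60.0 M for the other 13 libraries. The choroid plexus genes summed to 6513 in the vehicle wild-type replicate 3 and 5082 in the vehicle mutant replicate 1, against 18.7 to 920 in the other 12 libraries. In 4 libraries, all wild type (vehicle replicate 3, and treated replicates 2, 4 and 5), 9.78% to 13.6% of assembled transcripts matched no annotated gene, against 17.0% to 21.8% in the other 10. The labels name 2 versions of a library kit without assigning them. All 10 hippocampal excitatory neuron genes had values, with a sum of 2257 to 2546 per library. The members summed to 25.2 to 31.1.

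Kmt2d, the targeted gene, had a scaled abundance of 13.99, 14.2 and 13.8 in the vehicle wild types, and of 10.6, 10.7 and 14.4 in the vehicle mutants. Under TAK-418 it was at 13.8, 18.0, 12.5, 14.4 and 17.4 in wild types and at 14.6, 13.3 and 9.34 in mutants. Differences were fitted with limma on log2(scaled abundance + 0.9), as mutants minus wild types or TAK-418 minus vehicle, with calls at a Benjamini-Hochberg adjusted p under 0.05. Over both treatments Kmt2d differed by -0.26 ± 0.11 (SE), which was not called (adjusted p = 0.842), and the genotypes overlapped. Whether the assembled transcripts lie outside the disrupted part of the gene is not given in the sources used here. The group means of Kdm1a, the gene of the enzyme that the drug blocks, were 32.7 to 34.6.

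All 6 genes had a value in every one of the 14 libraries. In bulk tissue, fewer cells of a type and less RNA per cell cannot be told apart. Lhx6 was the highest at 7.87 ± 0.599 (SD over 14 libraries), followed by Dlx6os1 at 6.38 ± 0.861 and Dlx1 at 4.13 ± 1.63. Dlx5 stood at 3.28 ± 0.355, Dlx6 at 3.12 ± 0.549 and Dlx2 at 2.60 ± 0.279. Set against the mean levels of the 16600 genes tested, these means lay between percentile 29.1 for Dlx2 and percentile 47.8 for Lhx6. Lhx6 exceeded Dlx6os1 in 14 of 14 libraries and Dlx6 exceeded Dlx2 in 12. Dlx6os1 exceeded Dlx1 in 10 libraries. Dlx1 exceeded Dlx5 in 8 libraries and Dlx5 exceeded Dlx6 in 10, and the means of these neighbours differed by less than the larger SD of each pair. Dlx1 was the least even member, with an SD of 39.6% of its mean, and Lhx6 the most even, at 7.61%. The plot of the members by library shows these levels.

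**Figure D1:**
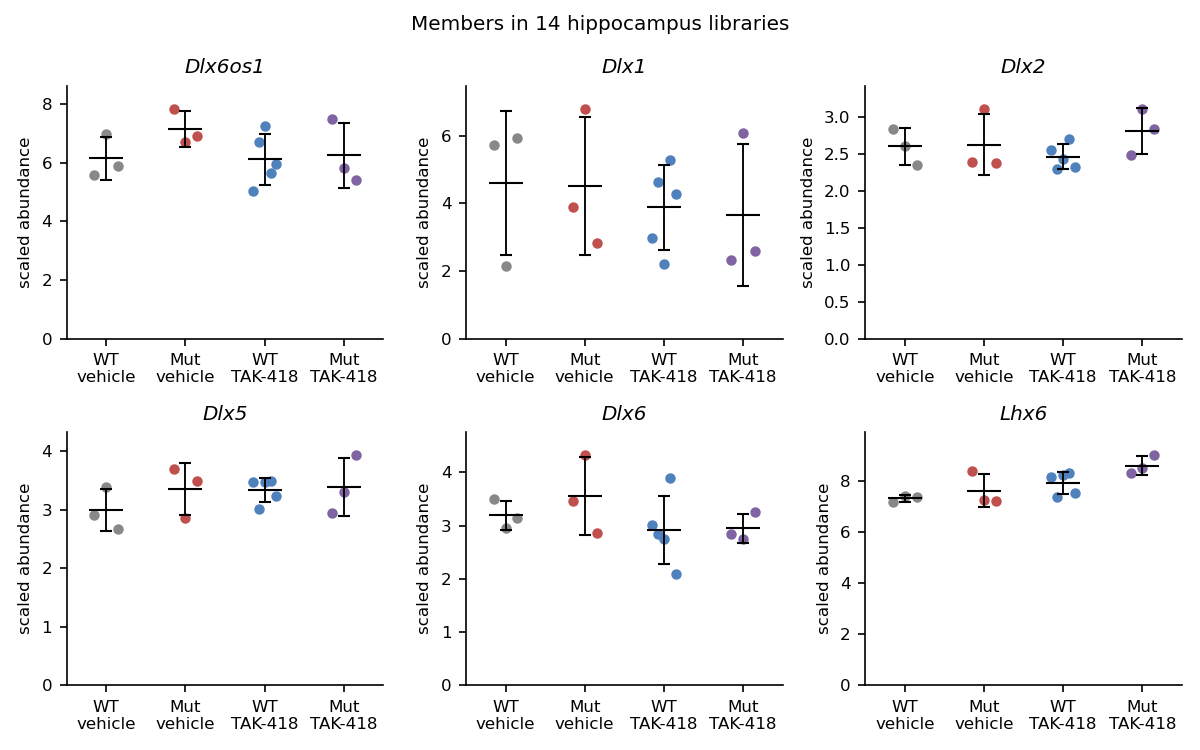
Scaled abundance (vertical axes, per-length units, starting at 0) of the 6 members in each of 14 libraries (points) by genotype and treatment, with the group mean and SD (bars). Lhx6 lay between 7.15 and 8.99 and Dlx2 between 2.29 and 3.11, while Dlx1 ranged from 2.16 to 6.79.

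Dlx6os1 was the member on whose genotype difference the 2 readouts disagreed. The authors' deposited tables put it lower in mutants and the library abundances did not. The comparison asked whether its level depended on the mutant genotype and on the drug. In the authors' deposited table for vehicle, Dlx6os1 was at an FPKM of 9.04 in wild types and 5.05 in mutants, a log2 ratio of -0.84 (p = 5e-05, q = 0.0270). In the authors' deposited table for TAK-418 it was at 8.18 in wild types and 5.04 in mutants, a log2 ratio of -0.70 (q = 0.0240). Treated mutants against vehicle wild types gave 5.05 and 9.10 in the authors' deposited table (log2 ratio -0.85, q = 0.0185), and vehicle mutants against treated wild types gave 5.06 and 8.12 (log2 ratio -0.68, q = 0.00995). Each group enters 2 of the 4 tables, so these are not 4 independent results. In the authors' deposited tables Dlx6os1 was 1 of 81411 loci and the only one called lower in mutants in all 4. With calls in either direction counted, 23 loci were called in both of the 2 tables that share no group. Of these, 1 was called lower in mutants in both.

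The loci called lower in mutants made up 0.091% of those tested within vehicle, 0.0552% within TAK-418, 0.194% for treated mutants against vehicle wild types and 0.177% for vehicle mutants against treated wild types in the authors' deposited tables. These shares leave out loci called higher in mutants. Of the 6 members, 1 was called lower in mutants in each of these comparisons, which the choice of members fixed. The other 5 members were not called in any of the authors' deposited tables, where their log2 ratios ran from -0.17 to 0.28 and their smallest q was 0.826. The deposited values counted here for Dlx1 and Lhx6 are those of joint loci with other genes, described below, and not of these genes alone.

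The per-library abundances did not show a lower Dlx6os1 in mutants. In vehicle wild types Dlx6os1 stood at 5.60, 6.996 and 5.88, and in vehicle mutants at 7.84, 6.72 and 6.91. In treated wild types it stood at 5.03, 6.70, 7.25, 5.67 and 5.96, and in treated mutants at 7.52, 5.84 and 5.43. The genotypes overlapped under both treatments, and the highest library of all was a vehicle mutant. Dlx6os1 differed between genotypes by a log2 difference of 0.19 ± 0.14 (SE) under vehicle (limma adjusted p = 0.994) and of 0.03 ± 0.12 under TAK-418 (adjusted p = 0.986), and the second was -0.05 without scaling of the libraries. Without the 2 libraries rich in choroid plexus genes the difference under vehicle was 0.11, and without the 4 libraries with few unmatched transcripts it was 0.17. The mutants were at 7.16 ± 0.602 (SD, n = 3) under vehicle and 6.26 ± 1.11 (SD, n = 3) under TAK-418, against 6.16 ± 0.738 (SD, n = 3) and 6.12 ± 0.871 (SD, n = 5) in wild types. Both readouts are drawn side by side in the plot of Dlx6os1 by group.

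**Figure D2:**
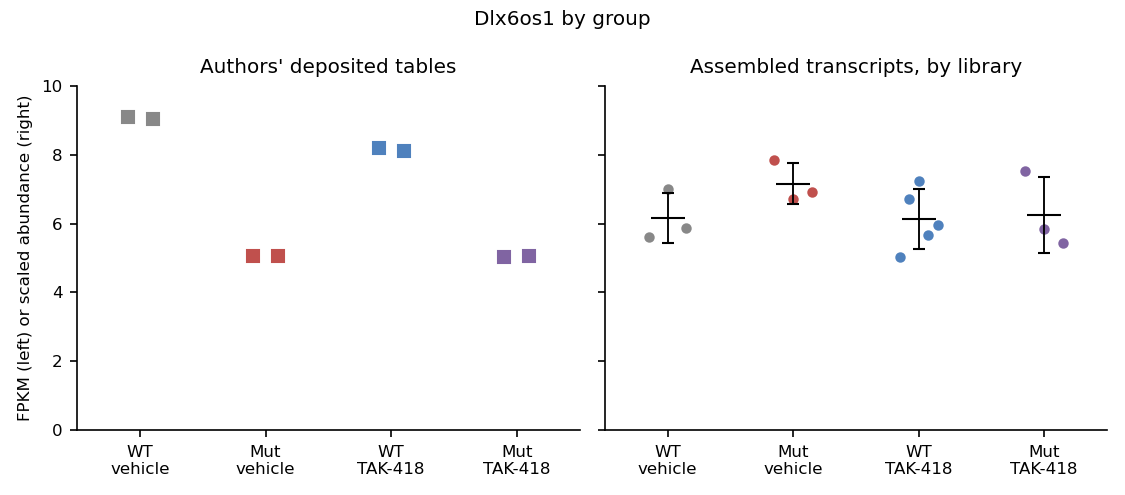
Dlx6os1 by group: left, the FPKM in the authors' deposited tables (squares, 2 tables per group); right, the scaled abundance in each library (points) with group mean and SD. The tables place wild types at 8.12 to 9.10 and mutants near 5.05, while the libraries of all 4 groups overlap and lie between 5.03 and 7.84.

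For Dlx2, Dlx5 and Dlx6 the ratio of the authors' deposited FPKM to the mean of the libraries was similar in every group. It was 0.649 to 0.687 for Dlx2, 0.701 to 0.737 for Dlx5 and 1.14 to 1.19 for Dlx6 over the deposited tables. For Lhx6 this ratio to the authors' deposited FPKM ran from 0.976 to 1.11, lowest in treated mutants (0.976 and 0.978) and highest in vehicle mutants (1.11). The joint locus of Dlx1 described below has no library counterpart. For Dlx6os1 the same ratio to the authors' deposited FPKM was 1.33 to 1.48 in wild types and 0.706 to 0.807 in mutants. The vehicle wild-type FPKM of 9.04 in the authors' deposited table lay above all 3 vehicle wild-type libraries, and the vehicle mutant FPKM of 5.05 lay below all 3 vehicle mutant libraries.

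The locus behind each readout was not the same length. GENCODE M21 gives Dlx6os1 the minus strand of chromosome 6 from 6820189 to 6871592 (GRCm38), 51.4 kb in which Dlx6 lies on the opposite strand from 6863334 to 6868568. The same symbol also names a 146-base short RNA gene at 6871488 to 6871633 that overlaps the far end. The locus in the authors' deposited tables runs from 6749758 to 6871633, 121.9 kb, and so ends at the last base of the short RNA. On the other side it reaches a cluster of assembled transcripts between 6749758 and 6758640, which lies 61.5 kb beyond the annotated end of Dlx6os1. That cluster had a value in 12 of 14 libraries: 0.800, 0.852 and 0 in wild types and 1.36, 0.519 and 0.876 in mutants given vehicle. It was at 0.240, 1.01, 0, 0.733 and 0.862 in treated wild types and at 1.26, 1.49 and 1.03 in treated mutants. Transcripts joining this cluster to Dlx6os1 exons were assembled in 1 library, the deepest (treated wild-type replicate 1), where all 3 Dlx6os1 transcripts did so. With this cluster, a piece of 0.643 between it and Dlx6os1 in 1 vehicle mutant, and the other minus-strand transcripts of the span added, the sums were 5.88 to 7.85 in vehicle wild types, 7.79 to 9.21 in vehicle mutants, 5.28 to 7.71 in treated wild types and 6.46 to 9.13 in treated mutants. These sums did not show the lower mutant level of the authors' deposited tables either. Minus-strand transcripts covering the short RNA were assembled in 6 libraries, at 0.287 and 0.303 in 2 vehicle wild types, 1.44 and 0.932 in 2 treated wild types and 0.467 and 0.630 in 2 treated mutants. What separates the FPKM from the library values was not tested.

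Most assembled Dlx6os1 transcripts began within 241 bases of 1 of 2 RefSeq starts, and the sequences around these are shown because those starting at the near one do not cross Dlx6 and those at the middle one do. The short RNA is shown because the authors' locus ends with it. RefSeq places the starts at 6861683 and 6869533 (GRCm38.p6, minus strand), 7.85 kb apart, of which the near one lies 1.65 kb short of Dlx6 and the middle one beyond it. The windows from 250 bases before to 50 bases after each start are printed 5′ to 3′, with capitals marking TAATTA, a core bound by many homeodomain proteins that reads the same on both strands.
near start, chr6:6861634-6861933 (minus strand): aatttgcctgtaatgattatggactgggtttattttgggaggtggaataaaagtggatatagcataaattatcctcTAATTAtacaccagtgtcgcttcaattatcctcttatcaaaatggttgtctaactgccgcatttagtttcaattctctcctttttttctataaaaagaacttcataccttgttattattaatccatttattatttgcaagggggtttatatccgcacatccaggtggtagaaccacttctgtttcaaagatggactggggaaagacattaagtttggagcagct
middle start, chr6:6869484-6869783 (minus strand): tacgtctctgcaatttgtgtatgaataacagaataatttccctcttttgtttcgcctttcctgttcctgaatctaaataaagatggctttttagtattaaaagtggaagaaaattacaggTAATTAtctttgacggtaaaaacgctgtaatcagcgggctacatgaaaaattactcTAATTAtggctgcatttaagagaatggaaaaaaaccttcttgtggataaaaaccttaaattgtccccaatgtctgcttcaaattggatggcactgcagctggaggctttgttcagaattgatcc
short RNA of the same symbol, chr6:6871488-6871633 (minus strand, GENCODE): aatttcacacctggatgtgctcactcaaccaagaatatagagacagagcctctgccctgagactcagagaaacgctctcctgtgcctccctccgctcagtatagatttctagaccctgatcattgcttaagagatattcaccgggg
The near window held 1 TAATTA and the middle window 2, whereas 5.29% of 32544 RefSeq windows of 300 bases held at least 1. None of the other 5 windows in the table, 1 each for Dlx1 and Dlx2 and 3 for Lhx6, held it. Dlx5 and Dlx6 had no entry. Of the assembled transcripts, 14 of 15 at the near start but 1 of 16 at the middle start began inside the printed window, the latter ranging from 241 bases upstream to 124 bases downstream of the RefSeq start. Both Dlx6os1 windows were low in G and C, at 35.3% and 35.7%, against 48.7% to 69.3% in the other 5. TAATTA holds only A and T, and the 5.29% was not matched for base content. Whether the Dlx6os1 windows hold more TAATTA than their base content gives was therefore not tested.

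Transcripts from the near start, which do not cross Dlx6, began 25 to 58 bases downstream of the RefSeq start and carried most of the abundance in 12 of 14 libraries. They stood at 4.51, 4.33 and 2.67 in wild types and at 6.32, 4.42 and 4.92 in mutants given vehicle. Under TAK-418 they stood at 0, 4.31, 4.01, 3.96 and 5.22 in wild types and at 6.29, 4.01 and 4.20 in mutants. The libraries of each group overlapped those of every other. The value of 0 belongs to the deepest library, where a transcript of 3.59 had an exon with the same inner edge as the near first exon and a further first exon inside Dlx6.

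Transcripts that cross Dlx6 on the opposite strand were assembled in all 14 libraries, and exceeded those of the near start in 2 of them, the vehicle wild-type replicate 3 and the deepest library. With every minus-strand transcript of the gene's span counted, also those that share no annotated intron, they stood at 1.38, 2.37 and 3.21 in wild types and at 1.07, 2.30 and 1.72 in mutants given vehicle. Under TAK-418 they stood at 1.44, 2.07, 3.06, 2.27 and 0.744 in wild types and at 0.360, 2.46 and 1.22 in mutants. The mean was 2.32 ± 0.919 (SD, n = 3) in vehicle wild types and 1.35 ± 1.05 (SD, n = 3) in treated mutants, with overlapping libraries. The label protocols name no strand-marking kit, so reads of this antisense transcript and of Dlx6 cannot be told apart except at splice sites.

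**Figure D3:**
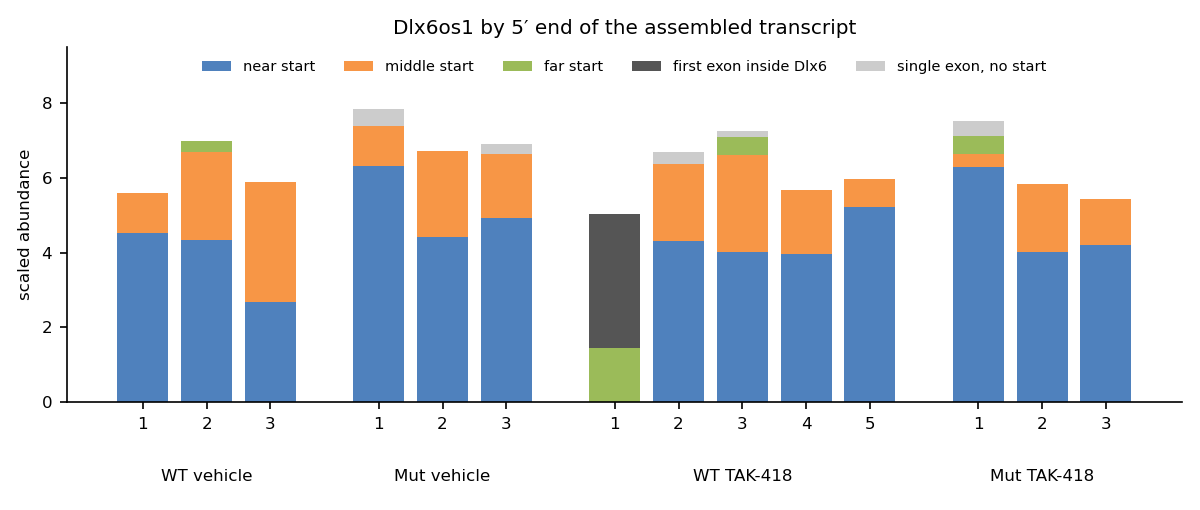
Scaled abundance of Dlx6os1 (vertical axis, from 0) in each library (bars, replicate numbers below), split by the 5′ end of the assembled transcript. The near start is the largest part in 12 of 14 libraries, and in the treated wild-type replicate 1 its place is taken by transcripts with a first exon inside Dlx6 at 3.59.

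Among the protein-coding Dlx genes, Dlx5 and Dlx6, the pair that Dlx6os1 overlaps or adjoins on chromosome 6, did not differ between groups beyond the spread of the libraries. Dlx5 (6877805 to 6882085, minus strand) stood at 2.91, 3.39 and 2.68 in wild types and at 3.70, 2.86 and 3.49 in mutants given vehicle. In treated wild types it stood at 3.47, 3.02, 3.48, 3.49 and 3.23, and in treated mutants at 2.94, 3.298 and 3.93. The groups overlapped throughout, and 97.9% of its abundance came from 1 structure of 3 exons found in 14 libraries.

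Under vehicle Dlx6 stood at 3.49, 2.95 and 3.14 in wild types and at 3.47, 4.32 and 2.87 in mutants. It stood at 3.00, 2.85, 2.75, 3.89 and 2.09 in treated wild types and at 2.84, 2.74 and 3.26 in treated mutants. The vehicle mutant replicate 2 was the highest and the treated wild-type replicate 5 the lowest. A structure of 4 exons carried 91.8% of its abundance, and single-exon pieces without a strand, which could come from either strand, carried 5.05%.

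Dlx2 (chromosome 2, 71543408 to 71546754, minus strand), which with Dlx1 acts early in interneuron progenitors, was assembled as 1 structure of 3 exons in all 14 libraries. It stood at 2.84, 2.61 and 2.35 in wild types and 2.39, 3.11 and 2.38 in mutants given vehicle. Under TAK-418 the values were 2.56, 2.29, 2.44, 2.71 and 2.32 in wild types and 2.48, 3.11 and 2.84 in mutants. The groups overlapped, with the treated mutants holding 2 of the 4 highest values.

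Dlx1 (chromosome 2, 71528113 to 71533981, plus strand) stood at 5.72, 2.16 and 5.94 in wild types and 3.91, 6.79 and 2.83 in mutants given vehicle. In treated wild types it stood at 2.99, 4.64, 2.21, 5.27 and 4.29, and in treated mutants at 2.33, 6.08 and 2.58. Every group held a library at or below 2.83 and one at or above 5.27, so the groups overlapped throughout. The authors' deposited tables give no separate Dlx1 value, only an FPKM of 16.01 to 17.0 for a joint locus with Metap1d, an upstream gene on the same strand, and Gm23253.

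Dlx1 was assembled in 14 structures, of which 7 appeared in 1 library, and none appeared in 10 or more. Its antisense partner Dlx1as (71516454 to 71537891, minus strand) overlaps all of it and ranged more widely still. Dlx1as stood at 3.99, 2.55 and 6.20 in wild types and 13.96, 3.91 and 4.95 in mutants given vehicle. Under TAK-418 the values were 10.4, 10.1, 3.46, 4.67 and 2.99 in wild types and 5.99, 2.82 and 3.44 in mutants. The vehicle mutant replicate 1, one of the 2 libraries rich in choroid plexus genes, was the highest. In the authors' deposited tables Dlx1as was at an FPKM of 14.1 to 15.2 and was not called. Reads from the 2 strands cannot be told apart here, so the split between Dlx1 and Dlx1as is uncertain. Of the other Dlx genes, Dlx3 had no assembled transcript and Dlx4 had 0.0750 in 1 library.

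Lhx6 (chromosome 2, 36081953 to 36105408, minus strand) was the only member with groups that did not overlap on the scaled abundance, and its highest values were in treated mutants. It stood at 7.15, 7.40 and 7.38 in wild types and at 8.38, 7.27 and 7.21 in mutants given vehicle. In treated wild types it stood at 8.16, 7.35, 8.21, 8.29 and 7.52, and in treated mutants at 8.30, 8.502 and 8.99. All 3 treated mutants lay above all 5 treated wild types and all 3 vehicle wild types, while they overlapped the vehicle mutants. The lowest treated mutant, at 8.304, was just above the highest treated wild type, at 8.293, and without scaling of the libraries the treated mutants, at 8.25, 7.70 and 9.25, overlapped both wild-type groups. The log2 difference was 0.21 ± 0.07 (SE) for treated mutants against vehicle wild types (limma adjusted p = 0.795) and 0.16 ± 0.07 for the drug in mutants (adjusted p = 1). Where the highest transcript alone stood for the gene, these differences were 0.64 and 0.62. The authors' deposited tables give Lhx6 with Gm27953 an FPKM of 7.81 to 8.49, with vehicle mutants at 8.47 and treated mutants at 8.39 in the tables within treatment, and no call. The treated mutants' excess over vehicle mutants in the libraries was not present in the authors' deposited values.

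Lhx6 was assembled in 2 main forms that differ by an annotated exon of 104 bases (36087368 to 36087471). Forms without it had a value in 14 libraries and forms with it, or with a splice junction at 1 of its edges, in 13. The share of Lhx6 abundance with the exon was 55.9%, 51.4% and 28.5% in wild types and 53.5%, 62.6% and 46.8% in mutants given vehicle. Under TAK-418 it was 29.4%, 43.7%, 12.0%, 13.7% and 56.2% in wild types and 41.8%, 0% and 7.09% in mutants. The treated and vehicle mutants did not overlap in this share, and the wild types did. A vehicle wild type, at 28.5%, lay below the treated mutant at 41.8%. How often an exon share separates these groups in other genes was not computed. On whole-gene abundance, 8.18% of all genes did not overlap between treated and vehicle mutants. Whether the drug changed the share was not tested. The split was examined after the values were seen, and 0% means that no such form was assembled in that library, not that the exon was absent from its RNA. The forms without the exon ranged from 2.72 to 8.502 and those with it from 0 to 4.54, against 7.15 to 8.99 for the whole gene.

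**Figure D4:**
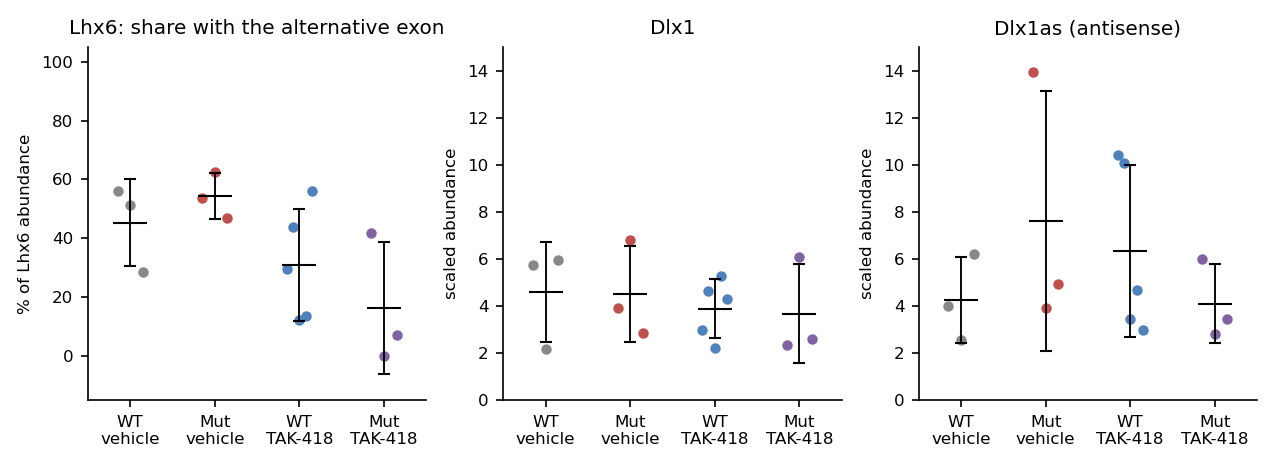
Left, percent of Lhx6 abundance in transcripts with the 104-base exon; middle and right, scaled abundance of Dlx1 and of its antisense partner Dlx1as, in each library (points) by group with mean and SD (bars). The exon share is 0% and 7.09% in 2 treated mutants, and Dlx1as spans 2.55 to 13.96 with overlapping groups.

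Across all genes the calls were few, and none fell on a member. Limma called 0 of 6 members for the genotype under vehicle, where it called 0% of 16600 genes (908 of them had an unadjusted p under 0.05), and 5 of 6 members were higher in mutants with a median log2 difference of 0.08. For the genotype under TAK-418 it called 0 of 6 members against 0.012% of all genes, again with 5 of 6 higher and a median of 0.03. For the drug in mutants it called 0 of 6 against 0.00602% of all genes, with 3 of 6 higher and a median of -0.08. For the drug in wild types it called 0 of 6 against 0% of all genes (1398 at an unadjusted p under 0.05), with 2 of 6 higher and a median of -0.03. Treated mutants against vehicle wild types gave 0 of 6 against 0.00602%, vehicle mutants against treated wild types 0 of 6 against 0% (1535 genes at an unadjusted p under 0.05), and the interaction of genotype and drug 0 of 6 against 0.00602%. The genotype effect averaged over both treatments gave 0 of 6 against 0.00602%. At an unadjusted p under 0.05, 1 member (Lhx6) passed for the drug in mutants, where 4.37% of all genes did. Lhx6 alone also passed for treated mutants against vehicle wild types, where 5.36% of all genes did. In the other 6 contrasts 0 members passed, where 4.43% to 9.25% of all genes did. The median over all genes lay between -0.003 and 0.004 in these contrasts. Small signs depended on the scaling: without it the genotype difference of Lhx6 under vehicle was -0.03 rather than 0.05, and that of Dlx2 -0.06 rather than 0.01.

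Groups did not overlap for 1 of 6 members (Lhx6) between genotypes under TAK-418, where this held for 4.6% of all genes, and for 1 of 6 (Lhx6) between treated mutants and vehicle wild types, where it held for 9.53%. It held for 0 of 6 members between genotypes under vehicle (8.91% of all genes), for the drug in mutants (8.18%), for the drug in wild types (6.33%) and between vehicle mutants and treated wild types (6.25%). The SE of a member's log2 difference ran from 0.06 for Lhx6 to 0.40 for Dlx1 in the fits within treatment or genotype.

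**Figure D5:**
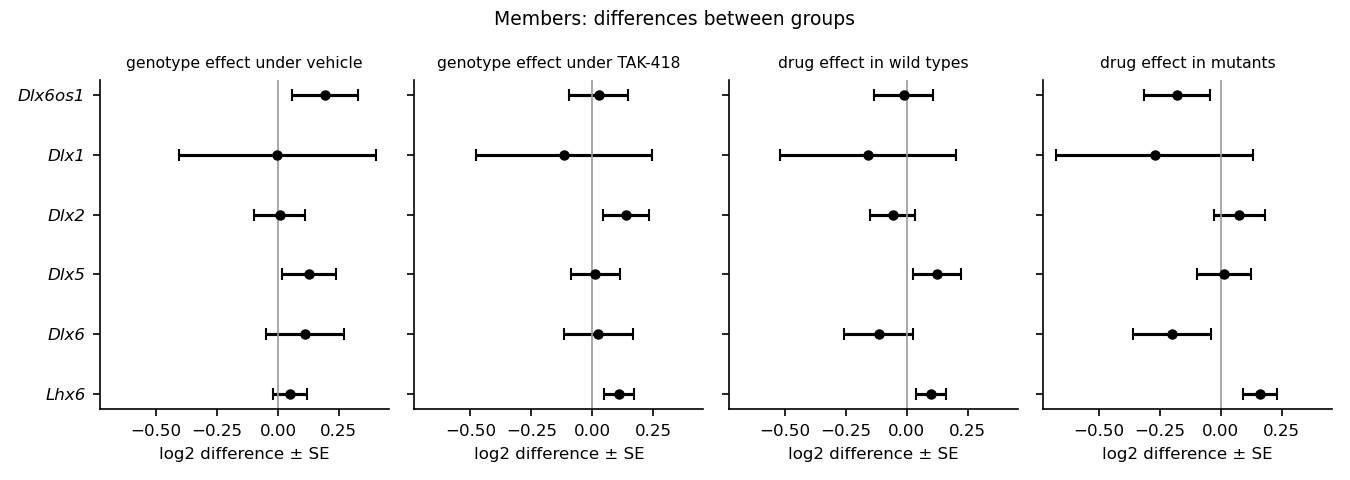
Log2 difference of each member (horizontal axis; points) with its standard error (bars) for genotype under each treatment and drug in each genotype, from limma on 14 libraries. Dlx6os1 was at 0.19 and 0.03 between genotypes, Dlx1 had the widest errors, and Lhx6 was above 0 in all 4 panels (at -0.03 under vehicle without scaling), with 0 calls.

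The other genes of the interneuron lineage gave no call by limma in any contrast, and none in the authors' deposited tables. Of 22 lineage regulators, 19 were tested, 9 were higher in mutants under vehicle and 11 under TAK-418, and the median log2 differences were -0.02 and 0.01. Sp9, a zinc-finger factor of interneuron progenitors, stood at 3.02 ± 0.192 in wild types and 3.23 ± 0.239 in mutants given vehicle (SD, n = 3 each). Sox6 and Satb1, which act after Lhx6 in maturing interneurons, differed by -0.02 ± 0.08 and -0.14 ± 0.08 on the log2 scale under vehicle. Maf differed by 0.11 ± 0.13. Nkx2-1, which switches on Lhx6 in the embryo, was listed in 9 libraries between 0.184 and 26.0 and at 0 in the other 5, but multi-exon transcripts of it were assembled in only 2 of them, so its log2 differences are uncertain. Sp8, Lhx8 and Isl1 had no assembled transcript.

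The enzymes and transporters that define GABAergic neurons varied little between groups, apart from 1 value. Gad1, which makes GABA, stood at 126 ± 4.23 in vehicle wild types, 127 ± 3.24 in vehicle mutants, 126 ± 3.98 in treated wild types and 130 ± 1.37 in treated mutants (SD, n = 3, 3, 5 and 3). Gad2, the second such enzyme, differed between genotypes by 0.06 ± 0.05 under vehicle and 0.05 ± 0.05 under TAK-418 on the log2 scale. Slc32a1, the vesicular GABA transporter, was at 10.5 in the vehicle mutant replicate 1, a library rich in choroid plexus genes whose part in this value was not tested, and at 25.8 to 35.2 in the other 13 libraries. The 5 genes of this list had a median log2 genotype difference of 0.01 under vehicle.

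Among the 14 interneuron subtype genes 4 were higher in mutants under vehicle and 9 under TAK-418, with medians of -0.06 and 0.01. Sst was at 288 ± 4.58 in wild types and 270 ± 27.4 in mutants given vehicle, and Pvalb at 51.6 ± 6.70 and 51.4 ± 7.68. Npy was at 66.8 ± 11.7 and 86.3 ± 6.84 (log2 difference 0.38 ± 0.12, adjusted p = 0.703), and Vip differed by -0.15 ± 0.14. Erbb4, the neuregulin receptor of migrating interneurons, had a log2 difference of -0.47 ± 0.13 under the drug in wild types, which was not called (adjusted p = 0.342).

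Striatal projection neurons also derive from cells with Dlx expression. The 10 genes of that list summed to 55.2 to 82.1 per library. The authors' deposited calls on them were 3 of 36 gene and table pairs. Ppp1r1b was at an FPKM of 25.5 in vehicle wild types against 18.1 in treated mutants, and 25.6 in vehicle mutants against 18.4 in treated wild types, in the authors' deposited tables. In the libraries Ppp1r1b was at 41.3 and 43.98 in the vehicle wild-type replicate 3 and the vehicle mutant replicate 1, the 2 rich in choroid plexus genes, and at 19.5 to 27.3 in the other 12. Six3 was called once in the authors' deposited tables, at an FPKM of 0.404 for vehicle mutants against 0.153 for treated wild types, and among the libraries it was highest in the same 2, at 0.705 and 1.19. Penk, an opioid precursor of those cells, had the list's smallest p under vehicle, at 17.6 ± 0.387 in wild types and 22.3 ± 0.781 in mutants given vehicle (log2 difference 0.33 ± 0.09, adjusted p = 0.634). On the scaled abundance its genotypes did not overlap under either treatment, as for 8.91% of all genes under vehicle and 4.6% under TAK-418. Under TAK-418 the lowest mutant was at 21.386 and the highest wild type at 21.286. Without scaling of the libraries the genotypes overlapped for Penk under both treatments. Of 8 thalamic and habenular genes 6 had values in all 14 libraries, with a sum of 24.5 to 32.1, led by Prkcd at 12.9 to 17.2, while Gbx2 and Pou4f1 had no assembled transcript. The 5 cholinergic genes summed to 0 to 1.57 per library, with Slc5a7 listed in 11 libraries and no assembled transcript of Chat. The part of these tissues in the members' levels was not tested.

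As a description over 14 libraries that share an assembler and a tissue, with no test, Pearson's r on the log2 scale between Dlx6os1 and its neighbours was -0.03 for Dlx5 and -0.04 for Dlx6. It was -0.08 between Dlx5 and Dlx6 and 0.38 between Dlx1 and Dlx2, and over all pairs of members it ran from -0.54 (Dlx1 with Dlx5) to 0.64 (Dlx5 with Lhx6). Between a member and another named gene of the lineage, r reached 0.70 for Dlx2 with Gad1 (rank 130 of 13271 genes) and 0.67 for Dlx2 with Vip (rank 197). The 5 genes most like Dlx6os1 were Arhgef5, Dnaic1, Samd11, Flt4 and Ttf2, with r from 0.91 to 0.81. Those most like Lhx6 were H13, Efna5, Slc26a10, Atp6v1g2 and Morn4 (r from 0.89 to 0.79), and those most like Dlx2 were Vps54, Tiprl, Egfl7, Zwint and Zfp970 (0.91 to 0.84). For Dlx1 they were Pard3, Inka2, Scml2, Fubp1 and Gtpbp10 (0.83 to 0.74), for Dlx5 Rbm42, Tfr2, Cgrrf1, Eml2 and Zc3h10 (0.82 to 0.74), and for Dlx6 Pdcl, Haus3, Smc4, Fam162a and Rcn2 (0.90 to 0.77). No member and no gene of the interneuron lists was among these 30.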

How the data were processed

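Hippocampal RNA of 14 samples was sequenced. The submitters' processing notes name TopHat2 2.1.0 and the build mm10, and per the file headers CLASS 2.1.7 assembled the transcripts of each library. The deposited transcript abundance is a score on a per-length scale. The 4 deposited tables hold, per group, an FPKM value by the authors, and per locus a log2 ratio, a p-value and a q-value. Their group columns were taken from the table names, and table positions were made 1-based.

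Transcripts were assigned to GENCODE M21 genes by a shared intron, or, with a single exon, by an overlap of at least 50% of its length. Abundances were summed per gene and divided by median-of-ratios factors over 13272 genes with a value in all libraries. The 16600 genes listed in 3 or more libraries were fitted with limma 3.58.1 on log2(scaled abundance + 0.9) over all 4 groups with Benjamini-Hochberg adjustment at 0.05. Such log2 differences understate changes of low genes. On simulated data with 200 changed genes, 83.2% of log2 changes of 1 were recovered for the genotype under vehicle. The changed genes were drawn only from genes above a set mean level. The share recovered therefore does not cover members as low as Dlx2, at a mean scaled abundance of 2.60. Members, gene lists and tests were chosen with earlier results of these data known. Named genes were the members, Kmt2d, Kdm1a, 15 lineage genes in any case (some are not reported here), other listed genes called or at the end of their list, and the 5 most like each member. Tools were Python 3.11.15, pandas 2.3.3 and R 4.3.3. Alternatives are given below. Sequences came from RefSeq (GRCm38.p6) and GENCODE.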

Additional observations from a re-analysis of the deposited data

Results flagged for a closer look

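Among 14 measures screened in the 5 treated wild-type libraries, 3 had a sample far from the other 4, where chance alone gives about 1 in 20. Relative depth was 167.6 M (M for 1000000) in replicate 1, against 56.1 M in the next library. Dlx6os1 transcripts from the near start were at 0 in the same replicate 1, where the transcript carried a further first exon, against 3.96 in the next lowest. Slc32a1 was at 35.2 in replicate 3, against 29.2 in the next highest, a gap just past the limit. This value stood out only within the treated wild types, since the treated mutant replicate 3 was also at 35.2. The lowest Slc32a1 value, 10.5 in the vehicle mutant replicate 1, lay outside the screened group.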

How the results depend on the processing

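No member was called by limma in the main setting or in any of 206 combinations of contrast and alternative setting. The 27 settings, counting the main one, included leaving out each of the 14 libraries in turn (0 to 0 members called). They also included 3 settings added after the data were seen, namely without the 2 libraries rich in choroid plexus genes, without the 4 libraries with few unmatched transcripts, and with stranded transcripts alone. The smallest adjusted p of a member was 0.417. Over all genes limma called 0 to 2 per contrast, against up to 20 without the 4 libraries with few unmatched transcripts (vehicle mutants against treated wild types) and 17 with only the compared groups in the fit (drug in mutants). Of 1236 refitted member differences, 86 had the other sign, in 24 of 48 differences, none of which was called, and 16 moved by more than 1 SD, among them Lhx6 when its highest transcript alone was used (0.62 for the drug in mutants). Dlx6os1 stayed between 0.09 and 0.28 for the genotype under vehicle and between -0.10 and 0.18 under TAK-418. At a q of 0.01 in the authors' deposited tables, 1 rather than 4 of the member calls remained. No paired analysis was possible because the labels pair no libraries, and the replicate numbers used here only name them. The limits are 3 libraries in most groups, unstranded antisense genes, abundances from separate assemblies in which a form can be missed, and 1 library at a relative depth of 168 M against 35.1 to 60.0 M.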
